A study of Homo sapiens with 6 samples.

Results

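The short-chain dehydrogenase/reductase (SDR) genes of the DHRS series and the retinol dehydrogenases RDH10 and RDH11 were examined in the human colon cancer cell line SW480 after knockdown of gankyrin. The 10 genes were DHRS1, DHRS2, DHRS3, DHRS4, DHRS7, DHRS9, DHRS11, DHRS13, RDH10 and RDH11. They were chosen from an earlier analysis of these arrays, with the knockdown-control differences known. Other measured DHRS and RDH genes, given below with the other SDR genes, were left out, and none of those passed the threshold. The values and calls of the 10 genes are therefore a description and not a test. Of the 10 genes, 9 had at least 1 probe set annotated to a single gene, and these 9 held 20 of the 41091 single-gene probe sets and were 9 of 19775 single genes on the array. The probe set listed for DHRS4 is also annotated to DHRS4L2, a near-identical copy, so DHRS4 has no value here. RNA came from cells given a short hairpin RNA (shRNA) against gankyrin (3 arrays) and from cells given a non-targeting control shRNA (3 arrays), each for 4 days, with no other treatment named. The labels do not say whether replicates were separate cultures, which shRNA sequence was used or whether the cells were a pool or a clone, so p-values speak only of the spread from array to array, which may be technical.

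SDR enzymes transfer hydride between a substrate and the cofactors NAD(H) or NADP(H), and they act on retinoids, steroids, lipids and reactive carbonyls. In the retinoid pathway, dehydrogenases such as RDH10 and DHRS9 oxidise retinol to retinal, reductases such as DHRS3, DHRS4 and RDH11 turn retinal back into retinol, and aldehyde dehydrogenases oxidise retinal to retinoic acid, the ligand of the RAR nuclear receptors. Retinoic acid promotes differentiation of the intestinal epithelium, and the enzymes that make it are often low in colon tumours.

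Values are log2 probe set signals, so a difference of 1 is a 2-fold change, and signals of different probe sets are not compared with each other. Array medians lay between 4.20 and 4.25, and each array correlated with its group at 0.993 to 0.998 on average. The gankyrin gene PSMD10 had signals of 6.58, 6.47 and 6.30 on the knockdown arrays, against 10.19, 10.23 and 10.15 on the control arrays. NFIL3, which 1 sentence of the series design names in place of gankyrin, was at 9.07 ± 0.05 on knockdown and 9.33 ± 0.13 on control arrays (SD, n = 3 each). It fell too, by 0.26 ± 0.07 (SE) on the log2 scale, with groups that did not overlap (limma, adjusted p = 0.0281). As a guide to the low end of the scale, 95% of 107 olfactory receptor probe sets had a mean below 4.48. Of 10 intestinal epithelial markers 8 lay above that level, among them EPCAM, KRT8, KRT18, KRT20, CDH1, CDX1, LGALS4 and VIL1, while CDX2 and GPA33 did not. Above it lay 3 of 5 leukocyte markers on the array (CD3E, ITGAM and LCP1, but not PTPRC or CD14), 2 of 7 fibroblast markers (COL1A1 and DCN, but not COL1A2, COL3A1 or PDGFRB), 2 of 5 endothelial markers (PECAM1 and TEK, but not CDH5 or VWF) and 1 of 5 liver markers (SERPINA1, but not ALB). The summed log2 signals of the epithelial markers were 87.1 to 88.0 on knockdown and 88.4 to 88.7 on control arrays, and those of the fibroblast markers 29.2 to 29.6 on knockdown and 28.8 to 28.9 on control arrays, so that in both lists the groups did not overlap. The sums overlapped for leukocyte markers (22.2 to 22.9 on knockdown and 21.8 to 22.6 on control arrays), endothelial markers (17.8 to 18.8 and 17.3 to 18.0) and liver markers (24.1 to 24.8 and 24.1 to 24.9). The part of these shifts in the results was not tested.

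DHRS2 was the member that differed most, at 5.44-fold lower after knockdown. DHRS9 and DHRS3, of the retinoid enzymes, and RDH10, DHRS7 and DHRS13 were also lower, by 1.22- to 1.51-fold. DHRS1, DHRS11 and RDH11 did not pass the threshold. To show what lies directly before the genes that fell most, the 250 bases before the first listed start of DHRS2 and DHRS9 are given, with DHRS11, the member with the most positive difference, for contrast. Sequences are RefSeq's on GRCh38.p14, 5′ to 3′ on the gene's strand, and capitals mark matches, on either strand, to TATAAA (the TATA box), TGANTCA (the AP-1 site), TGACNNNGC (the core of the antioxidant response element), AGGTCA (the nuclear receptor half-site) and CCAAT (the CCAAT box).
DHRS2 (chr14:23629865-23630114, + strand): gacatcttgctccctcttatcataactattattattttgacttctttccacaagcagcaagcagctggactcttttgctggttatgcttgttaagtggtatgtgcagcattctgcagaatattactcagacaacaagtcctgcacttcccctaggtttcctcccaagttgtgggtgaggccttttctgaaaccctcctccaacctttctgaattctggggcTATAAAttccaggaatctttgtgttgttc
DHRS9 (chr2:169066827-169067076, + strand): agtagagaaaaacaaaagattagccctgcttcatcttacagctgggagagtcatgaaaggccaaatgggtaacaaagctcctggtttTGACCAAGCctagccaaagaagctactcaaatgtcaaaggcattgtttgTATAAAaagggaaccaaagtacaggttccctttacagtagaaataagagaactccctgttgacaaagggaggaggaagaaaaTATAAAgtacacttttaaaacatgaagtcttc
DHRS11 (chr17:36591629-36591878, + strand): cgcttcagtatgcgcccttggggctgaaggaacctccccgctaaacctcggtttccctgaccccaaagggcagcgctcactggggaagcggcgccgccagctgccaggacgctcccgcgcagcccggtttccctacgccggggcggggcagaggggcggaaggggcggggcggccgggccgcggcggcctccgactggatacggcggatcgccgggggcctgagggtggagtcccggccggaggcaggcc

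The DHRS2 window held a single match, a TATAAA whose first base lies 29 bases before the start. The DHRS9 window held TATAAA at 32 and at 114 bases before the start and the sequence TGACNNNGC at 163 bases. The DHRS11 window held no match to the 5 motifs. The window of DHRS2 was 43.2% G or C, that of DHRS9 39.2% and that of DHRS11 74.8%, beside a median of 58.0% over the 35116 windows of all genes. TATAAA on either strand occurred in 10.7% of all windows, and on the gene's own strand within 40 bases of the start in 2.44%. TGANTCA occurred in 6.57% of windows, TGACNNNGC in 10.9%, AGGTCA in 12.1% and CCAAT in 32.0%. Of the other members with windows, DHRS3, DHRS4, DHRS13, DHRS1 and RDH11 held no TATAAA in any listed window, and their first windows were 52.8% to 70.8% G or C. Of the other motifs, window 3 of DHRS3 held TGANTCA and AGGTCA, window 1 of DHRS1 held TGACNNNGC and RDH11 held CCAAT. DHRS9 has 4 listed starts, and the arrays do not show which of them is used in SW480. In its windows 2 and 3 TATAAA lay 149 and 137 bases before the start, and window 4 held none. Window 2 also held TGANTCA and window 4 CCAAT. The windows of DHRS7 and RDH10 are not shown. A match is a run of letters, and no factor's binding was measured.

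In the fit across 14199 genes (limma, Benjamini-Hochberg adjustment, threshold 0.05), 6 of the 9 members measured fell and 0 rose (1 was higher at an unadjusted p under 0.05). Over all genes, 14.3% fell and 8.13% rose by the same rule. Leaving out single arrays gave 4 to 6 members that fell. The median log2 difference was -0.31 over the 9 members and -0.02 over all genes. For 7 of the 9 members no knockdown value fell within the control range or the reverse, a pattern shown by 40.3% of all genes. The genes were picked with this contrast known, and other DHRS and RDH genes, which did not pass, were left out. Nothing is therefore read from these shares. With 3 arrays per group, no exact permutation p (two-sided) can be below 0.1.

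**Figure D1:**
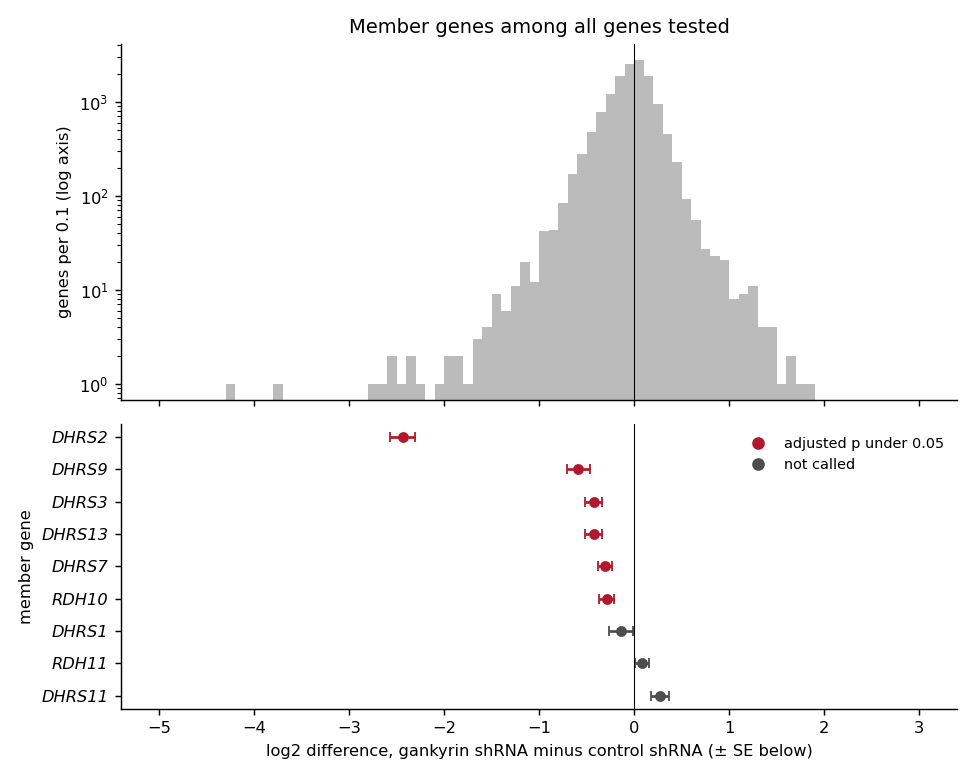
The upper panel is a histogram of the log2 differences (gankyrin shRNA minus control shRNA) of 14199 genes on a log count axis, and the lower panel gives the 9 member genes on the same axis with standard errors. DHRS2, at -2.44, lies in the sparse left tail, and the other members lie between -0.59 and 0.27.

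DHRS2 (also Hep27) is an NADPH-dependent dicarbonyl reductase of mitochondria and nucleus that is known to bind MDM2. On its brighter probe set, 214079_at, the log2 signal was 7.26, 7.73 and 7.19 on knockdown arrays 1 to 3, against 9.71, 9.82 and 9.98 on control arrays 1 to 3. The highest knockdown value lay 1.98 log2 units below the lowest control value. The log2 difference was -2.44 ± 0.13 (SE, n = 3 per group), the seventh most negative of the 14199 genes (limma, adjusted p = 3.87e-06). On the second probe set, 206463_s_at, the signal was 6.86, 6.96 and 6.35 on knockdown arrays, against 8.65, 8.95 and 8.41 on control arrays. That probe set gave a 3.85-fold lower signal, at -1.95 ± 0.19 (SE). Both probe sets thus separated the groups, and knockdown array 2 had the highest and array 3 the lowest of the knockdown values on each of them.

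**Figure D2:**
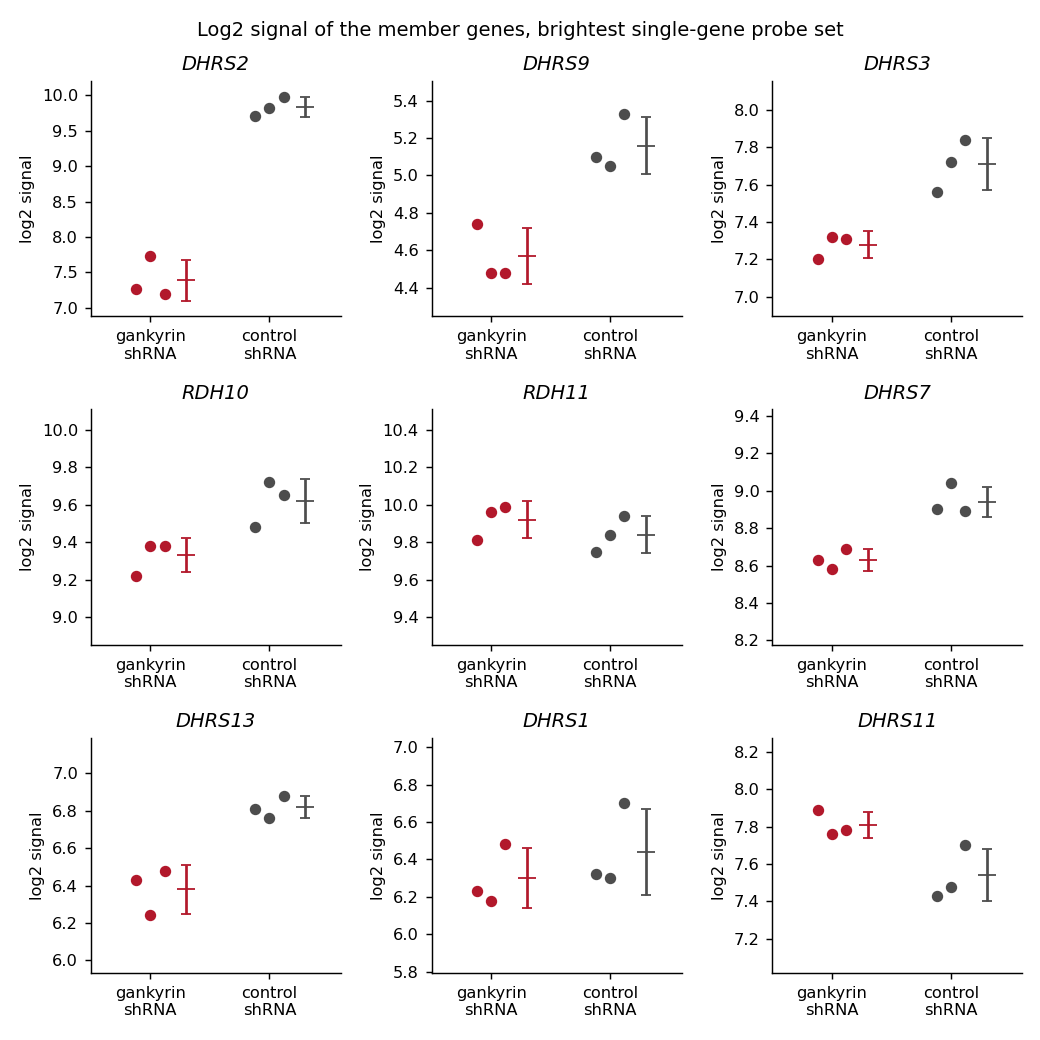
Log2 signal of the 9 member genes on each array, for the brightest single-gene probe set, with knockdown arrays in red and control arrays in grey. Bars give the mean ± SD (n = 3). The groups are separate for all but DHRS1 and RDH11, and each panel has its own axis of at least 1.2 log2 units.

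Among the enzymes that oxidise retinol, DHRS9, a retinol and 3-alpha-hydroxysteroid dehydrogenase of differentiated epithelia, was lower on all 3 of its probe sets. Its brightest probe set, 219799_s_at, had signals of 4.74, 4.48 and 4.48 on knockdown arrays, against 5.10, 5.05 and 5.33 on control arrays, a difference of -0.59 ± 0.12 (SE). The dimmer 224009_x_at read 3.21, 3.31 and 3.57 on knockdown arrays, against 5.08, 4.81 and 4.75 on control arrays. Its difference of -1.52, or 2.86-fold, was larger than that of the brightest probe set. The third, 223952_x_at, averaged 3.61 ± 0.32 on knockdown and 4.39 ± 0.15 on control arrays (SD, n = 3 each), a difference of -0.78. Groups were separate on each probe set. The direction was the same on all of them and the size was not, and the group means of 3.36 to 5.16 lay near or below the low end of the scale (4.48), so the size is uncertain. Probe set names ending in _x_at mark probes that can be shared with other transcripts.

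RDH10, which carries out the first oxidation step from retinol to retinal, was slightly lower. Its brightest probe set, 226021_at, had signals of 9.22, 9.38 and 9.38 on knockdown arrays, against 9.48, 9.72 and 9.65 on control arrays. The groups lay close together without overlapping, and the difference was -0.29 ± 0.08 (SE; limma, adjusted p = 0.0216). The probe set 227467_at read 7.89, 7.88 and 7.89 on knockdown arrays, against 8.11, 8.26 and 8.42 on control arrays, at -0.38. On 1552378_s_at the groups overlapped, with means of 6.97 and 7.08 for knockdown and control, and 1552379_at lay under the intensity filter at 1.74 and 1.77. RDH10 did not pass when knockdown array 1, 2 or 3 was left out (limma, adjusted p = 0.0990, 0.0553 and 0.0555), nor with control array 2 left out (0.0759).

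Among the enzymes that reduce retinal, DHRS3, a reductase that is itself induced by retinoic acid and forms a complex with RDH10, fell. Its only probe set, 202481_at, had signals of 7.20, 7.32 and 7.31 on knockdown arrays, against 7.56, 7.72 and 7.84 on control arrays. The groups did not overlap, and the difference was -0.43 ± 0.09 (SE), or 1.35-fold (limma, adjusted p = 0.00731). RDH11, an NADPH-dependent retinal reductase of the endoplasmic reticulum, had signals of 9.81, 9.96 and 9.99 on knockdown arrays, against 9.75, 9.84 and 9.94 on control arrays. These values overlapped, and the difference was 0.08 ± 0.07 (SE). The other 3 RDH11 probe sets had differences of 0.09, -0.13 and -0.07, each with overlapping groups.

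Of the members with broader substrates, DHRS7, an endoplasmic reticulum enzyme that reduces steroids and other carbonyls in vitro, fell on its main probe set. The signal of 210788_s_at was 8.63, 8.58 and 8.69 on knockdown arrays, against 8.90, 9.04 and 8.89 on control arrays, a difference of -0.31 ± 0.07 (SE). The groups lay 0.20 apart, with an SD of 0.06 on knockdown and 0.08 on control arrays. DHRS7 did not pass when knockdown array 2 was left out (limma, adjusted p = 0.0547). The other DHRS7 probe sets lay under the filter and had overlapping groups, at 3.32 on both knockdown and control arrays for 236332_at and at 2.91 and 3.02 for 213868_s_at.

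DHRS13 had signals of 6.43, 6.24 and 6.48 on knockdown arrays, against 6.81, 6.76 and 6.88 on control arrays. The groups were separate, and the difference was -0.43 ± 0.09 (SE; limma, adjusted p = 0.00832). DHRS11, a cytosolic reductase of 17-ketosteroids and other carbonyls, went the other way, with signals of 7.89, 7.76 and 7.78 on knockdown arrays, against 7.43, 7.48 and 7.70 on control arrays. No knockdown value overlapped the control values, yet the difference of 0.27 ± 0.09 (SE) narrowly missed the threshold (limma, adjusted p = 0.0502). Control replicate 3 was the highest control value, and without it DHRS11 was at 0.35 and passed (limma, adjusted p = 0.000839). With any other single array left out DHRS11 did not pass (limma, adjusted p = 0.108 to 0.185). DHRS1 had signals of 6.23, 6.18 and 6.48 on knockdown arrays, against 6.32, 6.30 and 6.70 on control arrays. These overlapped, at -0.14 ± 0.13 (SE), and the third replicate was the highest in each group.

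**Figure D3:**
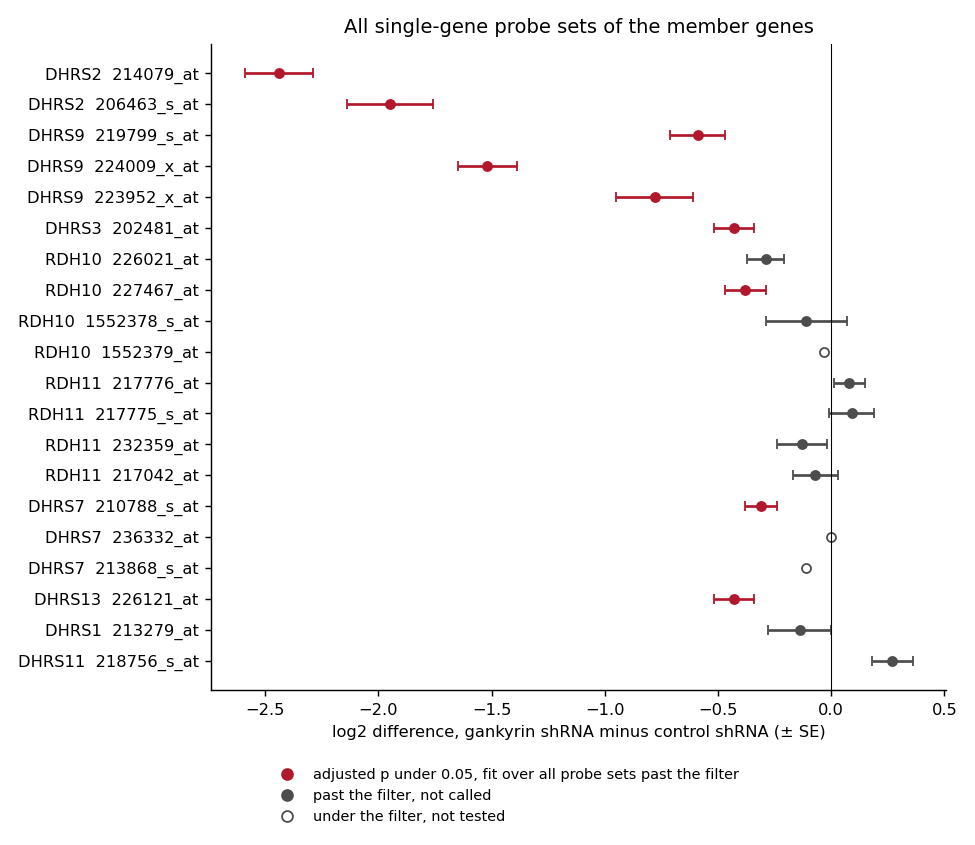
Log2 difference (gankyrin shRNA minus control shRNA) of all 20 single-gene probe sets, with standard errors from the fit over 32759 probe sets. Red points passed an adjusted p of 0.05 in that fit, grey points did not, and the 3 open points lay under the filter. Both DHRS2 and all 3 DHRS9 probe sets lie left of 0, and those of RDH11 lie on either side of it.

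In a fit of every probe set on its own, 17 of the 20 member probe sets passed the intensity filter, 9 of them fell and 0 rose (1 was higher at an unadjusted p under 0.05). Over the 32759 probe sets in that fit, 6.54% fell and 4.05% rose. The 9 comprised both DHRS2 probe sets, the 3 of DHRS9 and 1 each of DHRS3, DHRS7, DHRS13 and RDH10. The RDH10 probe set that passed was 227467_at, and the brighter 226021_at did not pass there (limma, adjusted p = 0.0614).

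The calls of DHRS7, RDH10 and DHRS11 depended on how the arrays were scaled. Centring each array on its median and quantile normalization both kept 6 members lower, with DHRS7 at -0.33 and -0.30 and RDH10 at -0.31 and -0.29, and DHRS11 passed as higher with quantile normalization at 0.30 (limma, adjusted p = 0.0235). Centring each array on the median of its tested genes, an alternative chosen after the data were seen, gave a median over all genes of 0.08 in place of -0.02 and turned the split of calls over all genes, of which 60.7% were higher in place of 36.2%. With that scaling 4 members fell (DHRS2 at -2.34, DHRS9 at -0.49, DHRS3 at -0.33 and DHRS13 at -0.33) and DHRS11 rose at 0.37. DHRS7 at -0.21 and RDH10 at -0.19 kept their direction and did not pass (limma, adjusted p = 0.0668 and 0.0838).

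The genes whose pattern over the 6 arrays was most like that of DHRS2, by the root mean square difference after subtracting each gene's control mean, were AKAP12 (0.14 log2 units), PLTP (0.20), IL32 (0.22), GULP1 (0.22) and MMP10 (0.25). AKAP12, a scaffold of protein kinase A, had signals of 9.10, 9.51 and 9.06 on knockdown arrays, against 11.70, 11.86 and 11.62 on control arrays. Like DHRS2 it was highest on array 2 among the knockdown arrays. The log2 differences of these 5 genes were -2.32 to -2.72. Likeness in size and array order follows from how such genes were picked, here and for DHRS11, and is not a result about them. For DHRS11 the most similar profiles were those of NTPCR, PPIP5K1, MND1, POLR3B and ITGB3BP, at 0.03 to 0.04 log2 units and with differences of 0.24 to 0.29.

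Beside the members, 48 of 59 other listed SDR genes were measured, of which 12 rose and 3 fell, with a median log2 difference of 0.04. Over all genes 8.13% rose and 14.3% fell, with a median of -0.02. This list too was chosen with earlier results known. HPGD, the SDR enzyme that inactivates prostaglandins, rose most of them, with signals of 6.26, 6.22 and 6.42 on knockdown arrays, against 4.61, 5.19 and 4.95 on control arrays. It was higher on all 4 of its probe sets, by at least 1.33 on the log2 scale. HSD17B2, which oxidises estradiol and testosterone, rose by 0.47 ± 0.08 (SE), DECR1, a reductase of mitochondrial fatty acid oxidation, by 0.42 ± 0.07 and GFUS, which makes GDP-fucose, by 0.38 ± 0.07. BLVRB, biliverdin reductase B, was at -0.38 ± 0.07. The other measured DHRS and RDH genes, named here after their values were seen, did not pass on any probe set. On the brightest, DHRS7B was at -0.03, DHRS12 at 0.01, DHRSX at -0.08 and RDH13 at -0.06. RDH5 was at -0.01, RDH8 at 0.04 and RDH16 at -0.02, and RDH12 had a mean signal of 4.06 in both groups. The group means of RDH5, RDH8, RDH12 and RDH16 lay below the low end of the scale (4.48). The 4 probe sets of RDH13 ran up to 0.72 and the 3 of DHRS12 lay between -0.21 and 0.07. The count of other SDR genes that rose was 4, 5 and 7 without knockdown replicate 1, 2 and 3, and 19 with arrays centred on their tested genes. The count that fell was 1 without knockdown replicate 2 or 3 and 5 without control replicate 3.

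**Figure D4:**
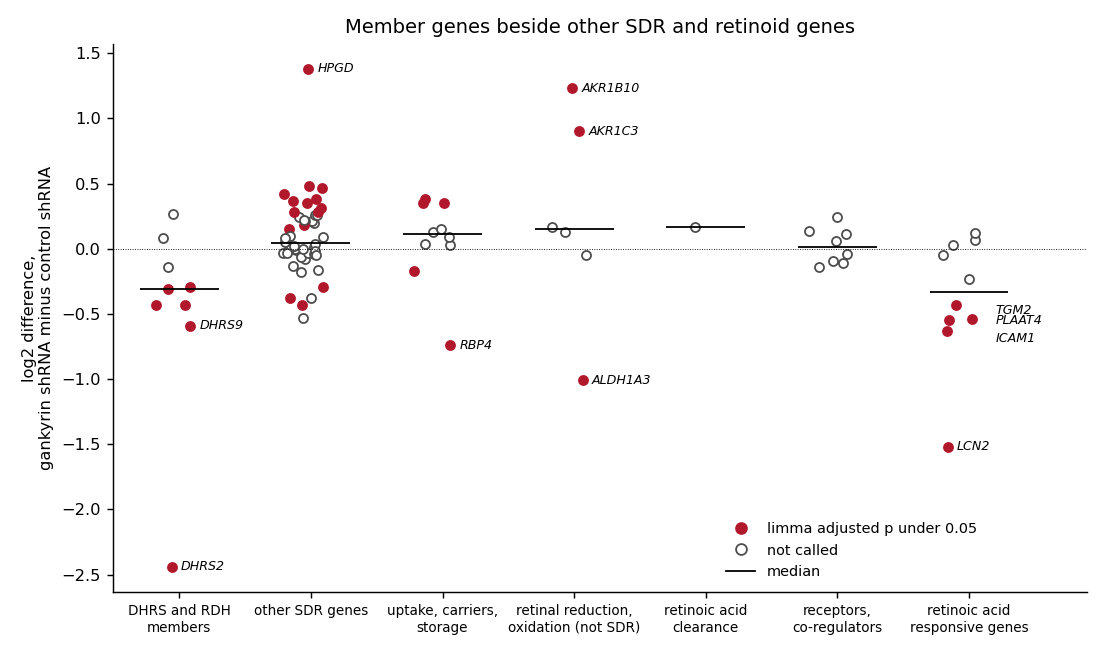
Log2 difference (gankyrin shRNA minus control shRNA) of each measured gene, in columns for the members, other SDR genes and 5 role groups of the retinoid pathway. Red points passed limma's adjusted p of 0.05, open points did not, and the line is the median. DHRS2 lies at -2.44, whereas HPGD and AKR1B10 lie above 1.

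The rest of the retinoid pathway moved in both directions. Of 61 listed genes 35 were measured, 5 rose and 8 fell, with a median log2 difference of 0.04. The shares over all genes were 8.13% higher and 14.3% lower. Without knockdown replicate 3, 3 rose, without knockdown replicate 2, 5 fell, and with arrays centred on their tested genes 8 rose. Among reductases and oxidases of retinal outside the SDR family, AKR1B10, an aldo-keto reductase that turns retinal into retinol, rose, with signals of 11.55, 11.53 and 11.61 on knockdown arrays, against 10.44, 10.42 and 10.13 on control arrays. AKR1C3 rose by 0.90 ± 0.06 (SE). It has near-identical relatives, and whether they share its probes was not tested. ALDH1A3, which oxidises retinal to retinoic acid, had signals of 4.55, 4.59 and 4.69 on knockdown arrays, against 5.56, 5.49 and 5.80 on control arrays. It fell 2.01-fold (limma, adjusted p = 0.000236), to a level near the low end of the scale. ADH5, which did not pass on its brightest probe set, was at 0.17 there and at 0.36 on its other probe set, which passed as higher in the fit of single probe sets.

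Among 10 measured genes of retinoid uptake, transport and storage 3 rose and 2 fell, beside 8.13% and 14.3% of all genes. The retinol-binding protein RBP4 fell, averaging 4.32 ± 0.09 on knockdown and 5.06 ± 0.23 on control arrays (SD, n = 3 each), also near the low end of the scale. CRABP2, which delivers retinoic acid to its receptors, was at 11.28, 11.22 and 11.11 on knockdown arrays, against 11.32, 11.40 and 11.39 on control arrays, a small fall of 0.17 ± 0.05 (SE) on the log2 scale. DGAT1, an acyltransferase that can esterify retinol, rose by 0.35, the carotenoid cleavage enzyme BCO1 by 0.38 and the lipoprotein receptor SCARB1, which takes up carotenoids, by 0.35. The only probe sets of CRABP2 and BCO1 did not pass in the fit of single probe sets. Of 8 receptors and co-regulators 0 passed in limma (1 was higher and 0 lower at an unadjusted p under 0.05), and RXRA was at -0.04 ± 0.09 and RXRB at -0.11 ± 0.09 (SE). Those values are for the brightest probe set, and others of a gene differed: NCOA2 ran from -0.06 to 1.03, RXRB from -0.11 to 0.46 and RARA from -0.48 to -0.09. In the fit of single probe sets 1 of the 4 measured for RARA passed as lower. RARG was the gene higher at an unadjusted p under 0.05, at 0.24 ± 0.09 (SE; limma, adjusted p = 0.0787). Its groups did not overlap. On its other measured probe set RARG was at 0.51, and neither probe set passed in the fit of single probe sets. CYP26B1, the measured enzyme of retinoic acid clearance, was at 0.17 and did not pass.

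Of 10 measured genes listed as responsive to retinoic acid, 5 fell and 0 rose in limma (6 and 0 at an unadjusted p under 0.05), with a median of -0.33. Over all genes 14.3% fell and 8.13% rose in limma. The list was chosen with earlier results of these data known, so nothing is read from its count. TGM2, a transglutaminase, had signals of 4.41, 4.05 and 4.34 on knockdown arrays, against 4.99, 4.73 and 4.70 on control arrays. LCN2, a lipocalin, was at -1.52 ± 0.19 (SE), the adhesion molecule ICAM1 at -0.63 ± 0.08, PLAAT4 at -0.55 ± 0.14 and the epithelial transcription factor ELF3 at -0.43 ± 0.08. The knockdown and control means of TGM2 (4.27 and 4.81) and PLAAT4 (4.48 and 5.03) lay near the low end of the scale. LCN2, ICAM1 and ELF3 are also well known as genes induced by inflammatory signalling, so the list is not specific to retinoic acid. Probe sets of a gene disagreed in places: 1 of 3 for TGM2, 2 of 3 for ICAM1 and 1 of 3 for ELF3 passed as lower in the fit of single probe sets, and the 1 of PLAAT4 did not pass there.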

How the data were processed

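Expression was measured on 6 one-colour Affymetrix arrays of SW480 RNA (6 ug of total RNA labelled with biotin, per the labels), 3 with gankyrin shRNA and 3 with control shRNA, grouped by sample title. The authors deposited 1 log2 signal per probe set and array; the values run from 1.29 to 13.68, which sets the scale as log2. MAS5 is named in the submitters' processing notes, and its version, the summary method and the genome build are not named in the sources used here. No scanner files or detection calls were used, and the number of arrays limits the precision.

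Of 54675 probe sets, 62 controls were left out; 41091 of the others were paired with 1 gene, 1801 with several and 11721 with none named here. Symbols were updated by Entrez identifier to RefSeq (19735 of 19775 genes matched). Probe sets in the lowest 40% by mean over all arrays (limit 3.60) were left out, and the brightest remaining single-gene probe set stood for its gene (14199 genes). The comparison used R 4.3.3 and limma 3.58.1 (lmFit, then eBayes with trend = TRUE); p-values are two-sided and adjusted by Benjamini-Hochberg across the 14199 genes. The code was tested on simulated data. The members and lists were chosen with earlier results of these data known. Named were all members, PSMD10 and NFIL3, up to 5 called genes of smallest p per list and up to 2 bright uncalled ones, and the 5 profiles most like DHRS2 and DHRS11. DHRS7B, DHRS12, DHRSX, RDH5, RDH8, RDH12, RDH13, RDH16, DHRS4-AS1, IRF9 and DCAF11 were named outside this rule, after their values were seen. So were RARG and the RARA and NCOA2 probe sets.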

Additional observations from a re-analysis of the deposited data

How the results depend on the processing

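DHRS2, DHRS9, DHRS3 and DHRS13 kept their direction and call under all 17 or 18 alternatives run for each, with log2 differences of -2.61 to -1.95, -1.52 to -0.49, -0.50 to -0.33 and -0.48 to -0.33; DHRS9 was not tested with the lowest 60% of probe sets left out. DHRS7 did not pass under 2 of 17 alternatives and RDH10 under 9 of 19 (differences of -0.38 to -0.11), among them no intensity trend (limma, adjusted p = 0.0549) and averaged probe sets (0.0509). DHRS11 passed under 5 of 17. RDH11 turned negative, without passing, with probe sets averaged (-0.01) and on its probe sets 217042_at (-0.07) and 232359_at (-0.13). The number of members that rose was 1, DHRS11, in place of 0 with the lowest 60% of probe sets left out, with quantile normalization, with a robust variance prior and with arrays centred on the median of their tested genes. That centring also gave 2274 genes higher, 19 other SDR genes higher and 8 retinoid genes higher, against 1154, 12 and 5 as deposited. With the lowest 60% left out 5 retinoid genes fell, in place of 8, as fewer (23) were tested.

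Leaving out single arrays gave 613 to 1808 genes higher, 1071 to 2353 genes lower, 0 to 1 members higher, 4 to 6 members lower, 4 to 17 other SDR genes higher, 1 to 5 lower, 3 to 7 retinoid genes higher and 5 to 8 lower. All genes called numbered 3189 with every array and 1734, 1743 and 1732 without knockdown replicate 1, 2 and 3. Without control replicate 1, 2 and 3 they numbered 3089, 2541 and 4161. Without control replicate 3, 5 other SDR genes fell. The causes were not tested. Same-numbered arrays correlated at 0.020, 0.108 and -0.006 in their deviations from the group means, and differently numbered ones at -0.070 to 0.048. Such values cannot settle whether the numbers pair the arrays, and the labels do not say. With a replicate block 1097 genes rose and 1952 fell, and 6 members fell and 0 rose.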

Other observations

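Of the 10 genes, 5 lie on chromosome 14, and DHRS2, DHRS4 and DHRS1 lie there within a short stretch in the RefSeq gene order of GRCh38.p14. Of the 42 RefSeq genes between DHRS2 and DHRS1, 17 were measured, 1 rose and 2 fell, beside 8.13% and 14.3% of all genes. Their median log2 difference was -0.09, with a range of -0.66 to 0.28. The genes in this paragraph were named after their values were seen. DHRS4-AS1, the transcript antisense to DHRS4, had signals of 8.48, 8.48 and 8.45 on knockdown arrays, against 8.88, 8.89 and 9.01 on control arrays, and fell by 0.46 on the log2 scale (limma, adjusted p = 0.00103). Its second probe set was dim, at 3.66 on knockdown and 3.87 on control arrays. IRF9, a subunit of the interferon-activated factor ISGF3, averaged 6.55 on knockdown and 7.22 on control arrays and fell, while DCAF11, a substrate adaptor of CUL4 ubiquitin ligases, averaged 6.95 and 6.68 and rose. No gene measured between DHRS2 and DHRS1 fell as far as DHRS2. The other genes of that stretch, DHRS4 among them, were not measured, and whether position plays a part was not tested.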
